A study of Mus musculus with 6 samples.

Results

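The voltage-gated calcium channels described here are 10 genes: 7 that encode pore-forming subunits (Cacna1a, Cacna1b, Cacna1c, Cacna1d, Cacna1e, Cacna1g and Cacna1h) and 3 that encode the auxiliary α2δ subunits (Cacna2d1, Cacna2d2 and Cacna2d3). They were taken by symbol from the 38926 gene symbols of the deposited count tables, and each of the 10 was among the 16706 genes that passed the filter on low counts. The tables come from RNA sequencing of dorsal root ganglia, the clusters of sensory nerve cell bodies beside the spinal cord, of lumbar levels L3, L4 and L5 on the treated side. Each library is a pool of ganglia from 4 wild-type female C57BL/6 mice aged 8 to 10 weeks, with 3 pools after vehicle and 3 after vincristine. Vincristine, a tubulin-binding chemotherapy drug with peripheral neuropathy as a side effect, had been injected into the paw to a cumulative 40 µg per the labels. A dose of 10 µg stands in the table names; its relation to the cumulative dose, the interval before tissue collection and what the vehicle contained are not stated in the labels. Vincristine was compared with vehicle to ask how ganglion transcript levels stand after treatment.

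Voltage-gated calcium channels open when a neuron depolarises and let calcium in, which triggers transmitter release at terminals, shapes firing and signals to the nucleus. The pore subunit sets the current type: Cacna1c and Cacna1d carry L-type, Cacna1a P/Q-type, Cacna1b N-type and Cacna1e R-type currents, all opened by strong depolarisation, while Cacna1g and Cacna1h carry T-type currents opened near rest. The α2δ subunits are largely extracellular proteins that bring channels to the membrane and raise their number at release sites. In sensory neurons, N-type channels drive release onto the spinal dorsal horn, T-type channels lower the firing threshold, and the α2δ subunit of Cacna2d1 is the binding site of gabapentin and pregabalin and is known to increase after nerve injury.

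The 3 α2δ genes are set beside each other here because ratios of Cacna2d1 to Cacna2d2 and Cacna2d3 are given further below. Shown are the 250 bases before each annotated start (RefSeq, GRCm38.p6, 5′ to 3′ on the gene's strand), a window that was available for 7 of the 10 members. Cacna2d1 lies on the plus strand (chr5:15934441-15934690), Cacna2d2 on the plus strand (chr9:107399630-107399879) and Cacna2d3 on the minus strand (chr14:29721865-29722114). In GENCODE M21, the annotation used below for lengths and positions, Cacna2d2 starts at 107399612, so its window lies inside that gene model. Capitals mark matches, on either strand, to GGGCGG, the core of the GC box bound by Sp1-type factors.
Cacna2d1: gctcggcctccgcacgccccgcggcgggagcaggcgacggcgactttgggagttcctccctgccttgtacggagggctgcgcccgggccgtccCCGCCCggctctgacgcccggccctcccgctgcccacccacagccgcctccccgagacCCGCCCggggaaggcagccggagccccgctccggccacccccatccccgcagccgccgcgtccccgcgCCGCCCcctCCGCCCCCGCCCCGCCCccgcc
Cacna2d2: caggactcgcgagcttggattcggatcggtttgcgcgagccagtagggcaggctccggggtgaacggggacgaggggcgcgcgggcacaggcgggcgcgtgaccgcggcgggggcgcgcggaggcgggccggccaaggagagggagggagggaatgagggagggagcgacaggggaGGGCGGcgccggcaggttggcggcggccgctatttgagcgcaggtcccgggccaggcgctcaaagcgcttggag
Cacna2d3: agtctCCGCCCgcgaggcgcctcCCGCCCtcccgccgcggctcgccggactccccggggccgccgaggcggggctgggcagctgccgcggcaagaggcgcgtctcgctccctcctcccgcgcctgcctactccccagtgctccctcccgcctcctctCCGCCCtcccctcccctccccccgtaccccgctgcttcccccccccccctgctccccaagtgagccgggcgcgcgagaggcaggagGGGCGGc
The window of Cacna2d1 holds 6 such matches, some of them overlapping, that of Cacna2d2 holds 1 and that of Cacna2d3 holds 4. At least 1 match is present in 32.7% of all 32851 RefSeq start windows of this length. Neither the AP-1 motif TGANTCA, present in 6.75% of all windows, nor the cyclic AMP response element TGACGTCA, present in 1.55%, occurs in the windows of these 3 genes. GC content is 82.4% for Cacna2d1, 74.4% for Cacna2d2 and 80% for Cacna2d3. These matches describe the letters of the windows and are not evidence of binding.

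Library properties bear on several results. Reads counted in genes ranged from 17967934 to 19917055 in the vehicle libraries, and were 12374331, 19406150 and 26346304 in vincristine replicates 1, 2 and 3. Levels are CPM, reads scaled to a common library total after TMM normalization. Vincristine replicate 1 stood apart: alignments that the counter assigned to no annotated feature made up 24.8% of its tally, against 14.8% to 17.0% in the other libraries. Whether reads in introns fell into this class is not stated. Markers of neurons, checked with 12 genes such as Rbfox3, Snap25 and Uchl1, were all expressed and summed to 3506 to 4520 CPM in vehicle and to 2030, 3766 and 4528 CPM in the vincristine replicates. Against the vehicle mean their mean log2 level was -1.03, -0.07 and 0.17 in vincristine replicates 1, 2 and 3. Of the 12 log2 fold changes 10 were negative and 2 positive, those of Map2 (0.37) and Elavl3 (0.06), where 50.7% of all genes were negative. By edgeR 0 of the 12 were called. In whole tissue, fewer neurons and less RNA per neuron cannot be told apart. Summed markers of neutrophils (8 of 8 genes with groups that did not overlap) were at 755 to 1326 CPM in vehicle and 2393 to 7347 CPM after vincristine, and those of red blood cells (8 of 8) at 2666 to 4420 and 5179 to 13381 CPM. For macrophage markers (5 of 8) the ranges were 333 to 384 and 441 to 627 CPM. Of all genes tested, 11.5% were higher after vincristine without overlap. Satellite glia (3419 to 3683 and 3182 to 3639 CPM) and Schwann cell markers (12090 to 16712 and 11169 to 15235 CPM) had overlapping sums, as had smooth muscle markers (408 to 506 and 372 to 513 CPM). The part of these cells in the levels below was not tested.

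None of the 10 calcium channel genes passed an adjusted p under 0.05 by edgeR's quasi-likelihood test, adjusted over all 16706 genes, where 0.359% of all genes did (0.293% higher and 0.0658% lower). None was at an unadjusted p under 0.05 either, where 11.4% of all genes were (8.1% higher and 3.27% lower), and DESeq2 called 0 of the 10 beside 3.41% of all genes. No member had groups that did not overlap, against 9.51% of all genes with all vincristine libraries below all vehicle libraries and 11.5% the other way. Of the 10 log2 fold changes 7 were negative, and their median was -0.18, with 50.7% negative and a median of -0.0033 over all genes tested. With libraries scaled to neuron markers, 8 of the 10 were positive with a median of 0.09, beside a median of 0.38 over all genes. Cacna2d1 had the largest estimate of the 10 in size, at 0.60, and the other 9 lay between -0.35 and 0.14.

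Set per kilobase of exon, so that genes can be compared, the α2δ gene Cacna2d1 was the most abundant of the 10 in vehicle ganglia. It stood at 19.0 ± 3.07 CPM per kilobase of exon (RPKM; SD, n = 3), with libraries between 15.6 and 21.5. The N-type pore gene Cacna1b followed at 9.60 ± 2.91 RPKM, with libraries between 6.50 and 12.3, so its range did not reach that of Cacna2d1. The T-type gene Cacna1h (5.24 ± 1.04), the P/Q-type gene Cacna1a (5.07 ± 1.24) and the α2δ gene Cacna2d3 (4.10 ± 0.608) had vehicle ranges that overlapped each other and lay below that of Cacna1b. The L-type gene Cacna1c (2.65 ± 0.521), the α2δ gene Cacna2d2 (2.60 ± 0.601) and the T-type gene Cacna1g (1.65 ± 0.445) came next, each overlapping its neighbour. The R-type gene Cacna1e (0.727 ± 0.149) and the L-type gene Cacna1d (0.720 ± 0.0338) were lowest and did not differ beyond their spread. With the longest transcript as length, Cacna2d3 moved up to 9.67 RPKM, beside 9.80 for Cacna1b and 31.7 for Cacna2d1, so the middle of the order depends on the gene model.

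**Figure D1:**
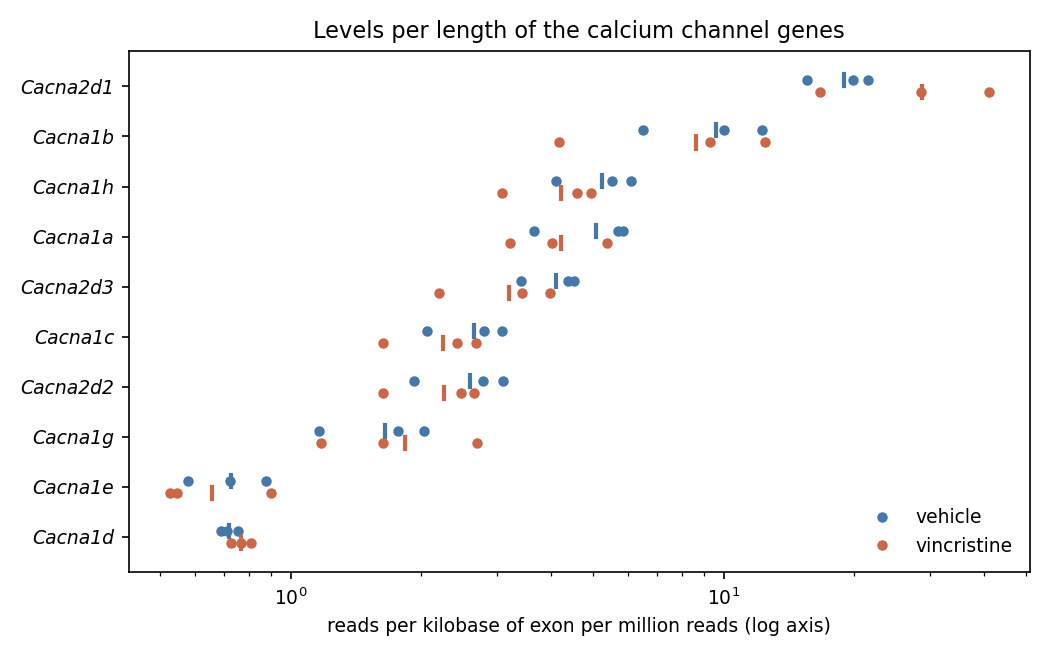
RPKM (log axis) for the 10 calcium channel genes, 1 point per library and a short bar at each group's mean, vehicle in blue and vincristine in orange. Cacna2d1 is highest at a vehicle mean of 19.0, Cacna1b follows at 9.60, and Cacna1d and Cacna1e are lowest at 0.720 and 0.727.

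Cacna2d1 spans chromosome 5 from 15934691 to 16374511 (GRCm38, GENCODE M21) and shares no exonic base with another gene of that annotation. It was at 193, 267 and 246 CPM in vehicle replicates 1, 2 and 3, and at 207, 355 and 508 CPM in vincristine replicates 1, 2 and 3. Vincristine replicates 2 and 3 lay above each vehicle library, and replicate 1 lay within the vehicle range. Group means were 236 ± 38.2 and 357 ± 151 CPM (SD, n = 3 each). The log2 fold change was 0.60 with a SE of 0.32 and a 95% interval from -0.15 to 1.35 (edgeR adjusted p = 0.537). The estimate turned on single libraries: it was 0.87 without vincristine replicate 1 (edgeR adjusted p = 0.0744, where 2.05% of all genes passed) and 0.24 without vincristine replicate 3 (edgeR adjusted p = 0.643). DESeq2 called Cacna2d1 without vincristine replicate 1 (DESeq2 adjusted p = 0.000841, with 3.78% of all genes called), and in no fit with all 6 libraries or without another one.

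**Figure D2:**
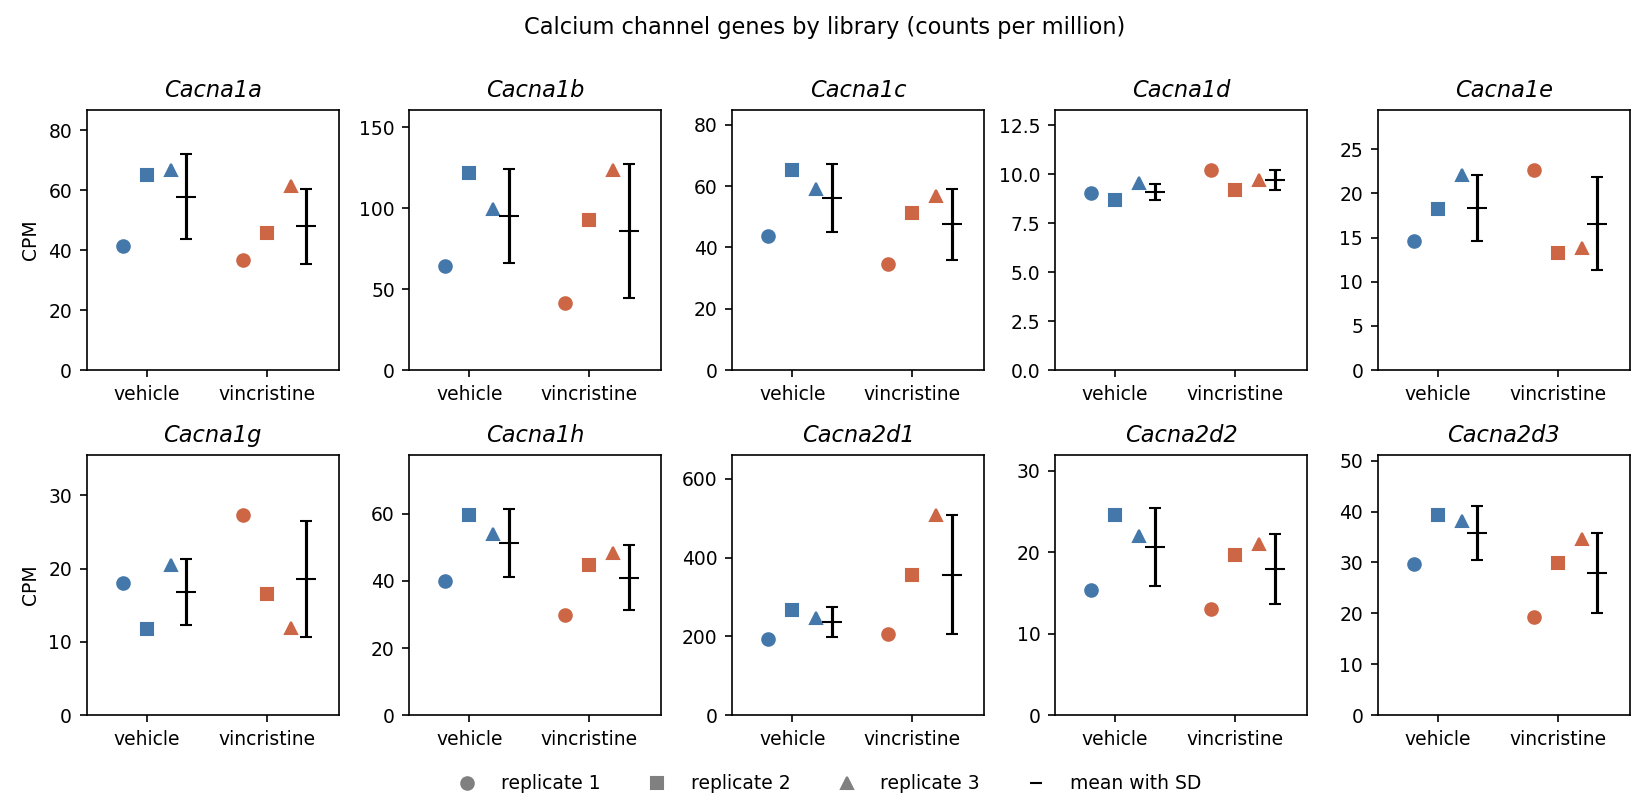
CPM of each of the 10 genes by library, with a marker shape per replicate number and the mean with SD beside each group of 3. The groups overlap in each panel; for Cacna2d1, vincristine replicates 2 and 3 lie at 355 and 508 CPM, above the vehicle maximum of 267 CPM.

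Ratios of reads within a library need no scaling of libraries, and those of Cacna2d1 to the other α2δ genes were higher in each vincristine library than in any vehicle library. Reads of Cacna2d1 per read of Cacna2d2, an α2δ gene whose product also binds gabapentin, were 12.6, 10.9 and 11.2 in the vehicle libraries and 15.9, 18.0 and 24.1 in the vincristine libraries. Each vincristine library, replicate 1 included, lay above each vehicle library. For Cacna2d3, an α2δ gene linked to heat nociception, the ratio was 6.53, 6.80 and 6.45 in vehicle and 10.8, 11.9 and 14.7 after vincristine, again without overlap. Relative to the N-type pore gene Cacna1b it was 2.99, 2.19 and 2.47 in vehicle and 4.99, 3.83 and 4.11 after vincristine. In vincristine replicate 1, Cacna2d1 itself was within its vehicle range at 207 CPM, while Cacna2d2, Cacna2d3 and Cacna1b were each at their lowest. An exact two-sided permutation test over the 6 libraries gave p = 0.1 for each of these 3 ratios. That is the smallest p that 3 against 3 allows, and it became 0.167 after Benjamini-Hochberg adjustment over the 5 ratios computed. The ratios were not among the planned results. These 3 share the reads of Cacna2d1, so they are not 3 independent results. Of all other genes tested, 5.48% had a ratio to Cacna2d2 that was higher without overlap, 17.3% a ratio to Cacna2d3 and 2.11% a ratio to Cacna1b. The remaining ratios, Cacna1h to Cacna1g and Cacna1b to Cacna1a, overlapped between the groups (exact permutation p = 0.6 and p = 1).

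**Figure D3:**
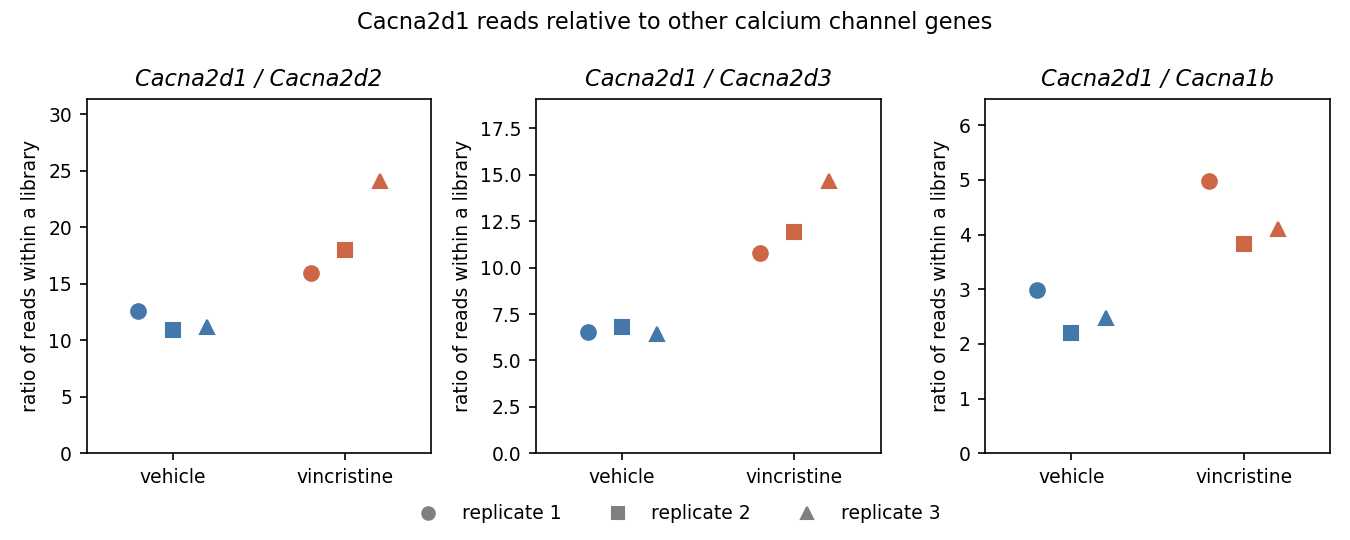
Reads of Cacna2d1 divided by reads of Cacna2d2, Cacna2d3 or Cacna1b in the same library, 1 point per library on axes that start at 0. The 3 vincristine points lie above the 3 vehicle points in each panel, for Cacna2d2 at 15.9 to 24.1 against 10.9 to 12.6.

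Relative to the neuron markers, Cacna2d1 was higher in each vincristine library than in any vehicle library. Its log2 CPM minus the mean of the 12 neuron markers, centred on the vehicle mean, was -0.03, 0.01 and 0.01 in vehicle and 0.86, 0.67 and 0.95 in vincristine replicates 1, 2 and 3. Of all genes tested, 7.34% were higher without overlap on this scale. It was the only 1 of the 10 members whose groups did not overlap there. Before that subtraction, Cacna2d1 was at -0.18, 0.60 and 1.12 against the vehicle mean in vincristine replicates 1, 2 and 3. The marker mean itself was -1.03 in replicate 1, so the value of 0.86 there came with no rise of Cacna2d1 in CPM. With libraries scaled to the neuron markers, edgeR gave a log2 fold change of 0.83 ± 0.24 for Cacna2d1 (unadjusted p = 0.00628, edgeR adjusted p = 0.612, with 0.114% of all genes called). That scaling moved the median of all genes tested by 0.38 on the log2 scale, so it compares Cacna2d1 with neuronal transcripts and not with the tissue as a whole.

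The pore genes Cacna1b, Cacna1a and Cacna1c were spread widely within both groups, and their estimates below 0 turned to 0.06, 0.05 and 0.07 with libraries scaled to neuron markers. Cacna1b (chromosome 2, 24603887 to 24763152) was at 64.6, 122 and 99.6 CPM in vehicle and at 41.5, 92.6 and 124 CPM after vincristine. Both the lowest and the highest library were vincristine libraries, and the log2 fold change was -0.15 with a 95% interval from -1.08 to 0.79 (edgeR adjusted p = 0.916). Cacna1a, on chromosome 8 from 84388440 to 84640246, was at 41.6, 65.1 and 66.9 CPM in vehicle and 36.6, 45.9 and 61.4 CPM after vincristine (log2 -0.27 ± 0.24). Cacna1c, on chromosome 6, had 43.9, 65.3 and 59.1 CPM in vehicle and 34.6, 51.3 and 56.8 CPM after vincristine (log2 -0.23 ± 0.22). In each of these 3 genes vincristine replicate 1 was the lowest of the 6 libraries and vehicle replicate 1 the next lowest.

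Cacna1d was the steadiest of the 10. This L-type gene, whose channel opens at less depolarised potentials than that of Cacna1c, was at 9.02, 8.70 and 9.55 CPM in vehicle and 10.2, 9.19 and 9.67 CPM after vincristine. Its log2 fold change of 0.09 had the narrowest 95% interval of the 10, from -0.21 to 0.39. The R-type gene Cacna1e was at 14.6, 18.2 and 22.1 CPM in vehicle, and at 22.7, 13.3 and 13.8 CPM after vincristine. Vincristine replicate 1 was its highest library and the other vincristine libraries were its lowest, and without replicate 1 the log2 fold change went from -0.15 to -0.44 (unadjusted p = 0.0381, edgeR adjusted p = 0.343). In that fit Cacna1e was the 1 member lower at an unadjusted p under 0.05, beside 4.25% of all genes, and Cacna2d1 the 1 member higher, beside 8.78%.

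The T-type genes had estimates on either side of 0. Cacna1h, the main T-type gene of sensory neurons and abundant in low-threshold touch fibres, was at 40.0, 59.7 and 53.9 CPM in vehicle and 30.0, 44.8 and 48.2 CPM after vincristine (log2 -0.32 ± 0.22, edgeR adjusted p = 0.629). Its lowest library was vincristine replicate 1, where the 6 markers of low-threshold C fibres, such as Th and Slc17a8, summed to 173 CPM against 364 to 500 CPM in vehicle and 397 to 404 CPM in the other vincristine libraries. The part of these fibres in the level of Cacna1h was not tested. Cacna1g was at 18.0, 11.8 and 20.5 CPM in vehicle and 27.3, 16.6 and 11.9 CPM after vincristine, with vincristine replicate 1 as its highest library. Its log2 fold change was 0.14 with all libraries and -0.24 without vincristine replicate 1, so no direction can be given. Reads of Cacna1h per read of Cacna1g ranged from 2.22 to 5.07 in vehicle and from 1.10 to 4.05 after vincristine.

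Cacna2d2 and Cacna2d3 both had estimates below 0, which for Cacna2d2 turned to 0.11 with libraries scaled to neuron markers. Cacna2d3 (chromosome 14, 28904943 to 29721864) was at 29.6, 39.3 and 38.2 CPM in vehicle and 19.2, 29.8 and 34.6 CPM after vincristine, a log2 fold change of -0.35 ± 0.22 (edgeR adjusted p = 0.601) that ranged from -0.55 to -0.07 over the alternatives. Cacna2d2 (chromosome 9, 107399612 to 107529343) was at 15.3, 24.6 and 22.0 CPM in vehicle and 13.0, 19.7 and 21.1 CPM after vincristine (log2 -0.20 ± 0.24). Vincristine replicate 1 was again the lowest of the 6 in both. The 3 α2δ genes together summed to 239 CPM in that library, against 238 to 331 CPM in vehicle and 404 and 564 CPM in vincristine replicates 2 and 3.

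Across libraries the members split into sets. In vincristine replicate 1, the library with the lowest neuron markers, 6 members were at their lowest level of the 6 libraries (Cacna1a, Cacna1b, Cacna1c, Cacna1h, Cacna2d2 and Cacna2d3), 3 were at their highest (Cacna1d, Cacna1e and Cacna1g), and Cacna2d1 lay between. Among the vehicle libraries, 8 of the 10 were lowest in replicate 1, the vehicle library with the lowest neuron markers (mean log2 level -0.24). Their part in these levels was not tested. Without vincristine replicate 1 the log2 fold changes were -0.11 for Cacna1a, -0.05 for Cacna1c, -0.14 for Cacna1h, -0.02 for Cacna2d2 and -0.15 for Cacna2d3, each nearer 0 than with all libraries. The estimate of Cacna1b, also lowest in that library, went from -0.15 to 0.18. After subtraction of the neuron marker mean, Cacna1d, Cacna1e and Cacna1g stood at 1.20, 1.36 and 1.77 in vincristine replicate 1, and between -0.62 and 0.09 in the other vincristine libraries.

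**Figure D4:**
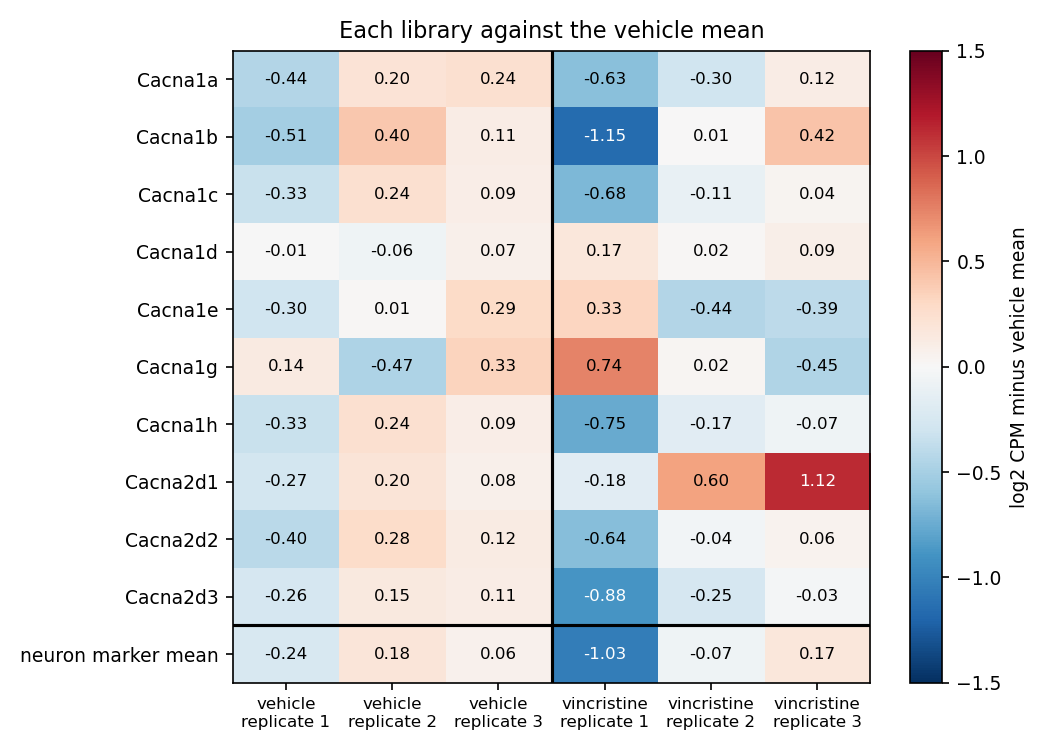
Log2 CPM minus the vehicle mean for each of the 10 genes (rows) in each library (columns), with the mean of 12 neuron markers in the bottom row; red is higher and blue lower. In vincristine replicate 1 the neuron marker mean is -1.03 and Cacna1b is at -1.15, while Cacna1g is at 0.74; Cacna2d1 reaches 0.60 and 1.12 in vincristine replicates 2 and 3.

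The genes whose log2 CPM over the 6 libraries followed Cacna2d1 most closely, among 15632 genes averaging 1 CPM or more, were Vgf, Fam171b, Gtf2a1, Osmr and Hspb1, with Pearson's r between 0.994 and 0.998. Vgf, which encodes a neuropeptide precursor, had a log2 fold change of 0.76, and Hspb1, a small heat shock protein gene, of 0.43. Those of Fam171b, Gtf2a1 and Osmr were 0.60, 0.12 and 0.25. For Cacna1b the closest were Faxc, Kif1a, Mrps5, L1cam and Slit1, with r between 0.997 and 0.999. Kif1a, an axonal transport motor, and L1cam, an axonal adhesion molecule, had log2 fold changes of -0.13 for each gene. With 6 libraries and so many genes, high values of r are found for many pairs, and the libraries share their differences in neuron marker level, so these are descriptions only.

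Of the 16 other calcium channel subunit genes, 13 had enough reads to be tested and 0 were called by edgeR or by DESeq2. By edgeR 1 was at an unadjusted p under 0.05, lower after vincristine, where 3.27% of all genes were lower and 11.4% were past it in either direction. The median log2 fold change was -0.15 over the 13. Groups did not overlap, with lower levels, for 2 of the 13, Cacnb4 and Cacng2, against 9.51% of all genes. The β subunits sit inside the cell and carry pores to the membrane. Cacnb4 was at 127, 176 and 156 CPM in vehicle and at 63.4, 112 and 127 CPM after vincristine. All 3 vincristine libraries were below all 3 vehicle libraries, the nearest pair lying less than 1 CPM apart, and the log2 fold change was -0.61 ± 0.26 (edgeR adjusted p = 0.448). It was -0.36 without vincristine replicate 1 (edgeR adjusted p = 0.345). Relative to the neuron markers Cacnb4 was at -0.22, -0.38 and -0.43 in the vincristine libraries and between -0.02 and 0.03 in vehicle, where 2.39% of all genes were lower without overlap. Cacnb3 (-0.57, -0.11 and -0.19 against -0.09 to 0.11) and Cacng5 (-0.19, -0.30 and -0.31 against -0.17 to 0.10) were also lower without overlap on that scale. A430018G15Rik and other genes on the opposite strand share 1433 of the 8963 exonic bases of Cacnb4. The counting settings are not stated, so Cacnb4 may have lost reads there as ambiguous or gained reads of those genes.

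Cacnb3, the most abundant β subunit gene, was at 178, 219 and 192 CPM in vehicle and 64.4, 173 and 193 CPM after vincristine. In CPM only replicate 1 was far from the vehicle range, and the log2 fold change of -0.45 became -0.10 without it. Cacnb1 (-0.24) and Cacnb2 (0.26) had overlapping groups, and without vincristine replicate 1 they were at 0.04 and 0.05. Among the γ subunits, several of which are known mainly as partners of AMPA receptors, Cacng2 was at 8.01, 10.0 and 9.70 CPM in vehicle and 7.43, 6.94 and 6.98 CPM after vincristine, without overlap. Its log2 fold change was -0.38 ± 0.15 (unadjusted p = 0.0370, edgeR adjusted p = 0.399), and 0.04 with libraries scaled to the neuron markers. Cacng5 and Cacng7 had log2 fold changes of -0.52 and -0.15, Cacng4 of 0.07, and the low genes Cacng3 and Cacng8, each with at most 22 reads in any library, of 0.32 and 0.90. Without vincristine replicate 1 the estimates were -0.28 for Cacng5, 0.05 for Cacng3 and 0.21 for Cacng8, and Cacng4 and Cacng7 changed sign.

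None of the remaining pore genes was called. Cacna1i, the third T-type gene, was at 14.1 ± 3.71 CPM in vehicle and 11.6 ± 3.59 CPM after vincristine (log2 -0.28, and -0.05 without vehicle replicate 2 or without vincristine replicate 1). Cacna1s, the L-type pore of skeletal muscle, was at 2.58, 2.71 and 7.35 CPM in vehicle and 4.88, 17.4 and 5.70 CPM after vincristine (log2 1.15 ± 0.61, edgeR adjusted p = 0.536). Its estimate was 0.33 without vincristine replicate 2 and 1.82 without vehicle replicate 3. The 6 libraries had the same order for Cacna1s as for the sum of 8 skeletal muscle markers, which was 66.5, 108 and 477 CPM in vehicle and 186, 922 and 217 CPM after vincristine. The part of muscle in this level was not tested. Cacna2d4, at 0.550 ± 0.190 and 0.889 ± 0.179 CPM, had at most 20 reads in any library. Cacna1f, Cacng1 and Cacng6 had at most 6, 18 and 14 reads and were not tested; Cacna1f had 0 reads in vehicle replicate 3, where 3 reads would be 0.150 CPM, and Cacng1 had 0 in vincristine replicate 1, where they would be 0.232 CPM.

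**Figure D5:**
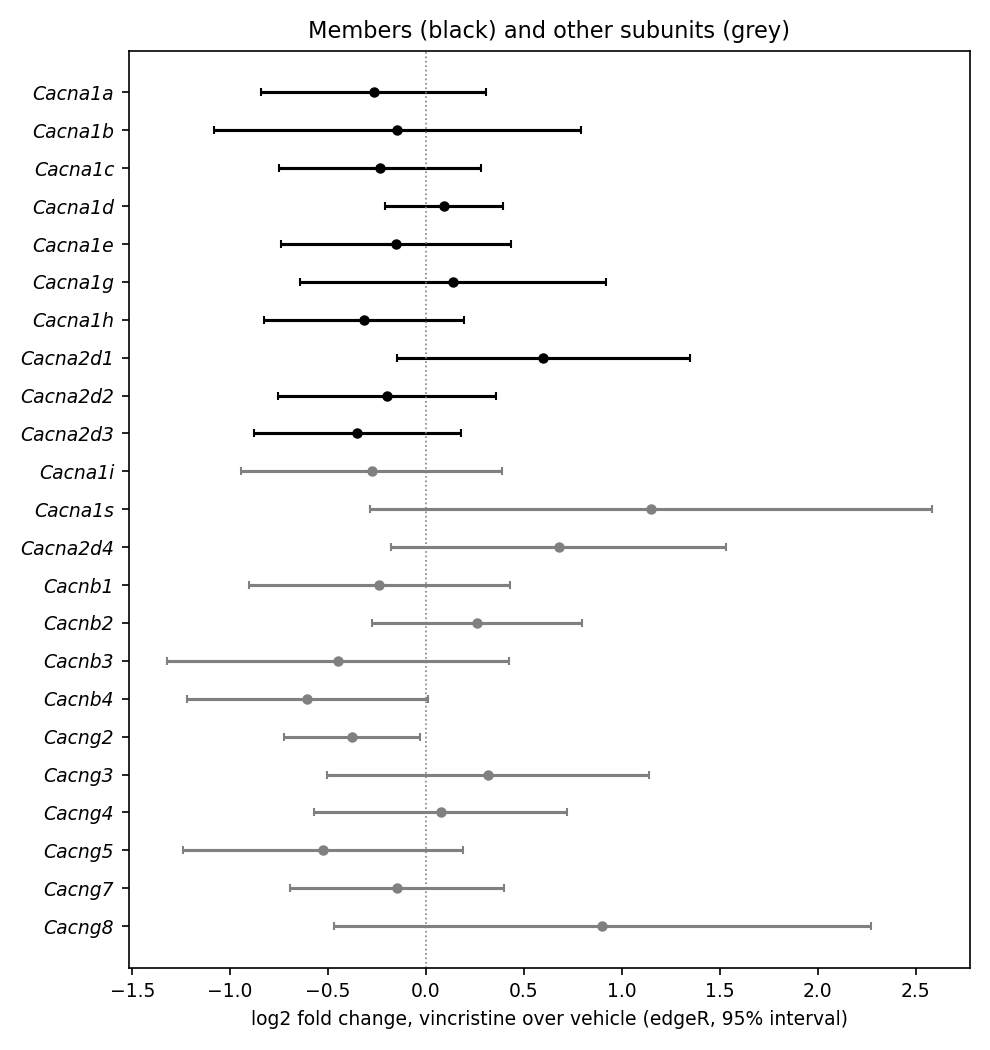
Log2 fold change of vincristine over vehicle by edgeR with its 95% interval for the 10 members (black) and the 13 other subunit genes tested (grey); the dotted line is 0. Each member's interval includes 0, Cacna2d1 at 0.60 reaches from -0.15 to 1.35, and Cacng2 at -0.38 has an interval from -0.73 to -0.03 before adjustment for the number of genes.

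Proteins that bind, traffic or regulate the channels showed no called gene. Of 28 such genes, all tested, 0 passed by edgeR or DESeq2, 1 was lower at an unadjusted p under 0.05 (3.27% of all genes were), and the median log2 fold change was -0.13. The 4 with the smallest p were Rims2 (-0.30 ± 0.12, edgeR adjusted p = 0.386) and Rims1 (-0.30), which tether calcium channels at release sites, Rem2 (-0.73), a small GTP-binding protein that restrains channel currents, and Thbs4 (0.33), a thrombospondin of the family that binds the Cacna2d1 product. Without vincristine replicate 1 the estimates of Rims1, Rem2 and Thbs4 were -0.14, -0.49 and 0.15, and without vehicle replicate 2 those of Rims1 and Rem2 were -0.17 and -0.42. Groups did not overlap, with lower levels after vincristine, for 4 of the 28, Rims2 among them, where 9.51% of all genes did so. Rims2 was at 0.07 with libraries scaled to neuron markers. Without vincristine replicate 1, 1 of the 28 regulators was called, where 2.05% of all genes were. This was Stac, an adaptor of L-type channels, at 0.61 ± 0.12 (edgeR adjusted p = 0.0477), against 0.27 with all libraries. It was singled out after its value was seen.

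Of 24 genes of calcium stores, pumps, exchangers and buffers, all tested, 0 were called by edgeR or DESeq2, 2 were higher at an unadjusted p under 0.05, about the share of all genes (8.1%), and the median log2 fold change was 0.03. These 2 were Atp2b4, a plasma membrane calcium pump (0.34 ± 0.12, edgeR adjusted p = 0.373), and Orai1, the pore of store-operated entry (0.30 ± 0.11, edgeR adjusted p = 0.376). Atp2a3, a pump of the endoplasmic reticulum, was at 0.62 and the sodium-calcium exchanger gene Slc8a3 at -0.25. Without vincristine replicate 1 they were at 0.27 and -0.14. Groups did not overlap, with higher levels, for Atp2b4, Orai1 and the store sensor gene Stim2 (0.12), 3 of the 24, where 11.5% of all genes did so; this is close to the share over all genes.

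Counting limits apply to a few members. Whether strand was used in counting is not stated, and genes on the opposite strand share 435 of the 11418 exonic bases of Cacna1a, 589 of 12621 of Cacna1d, 158 of 9763 of Cacna1h and 82 of 7947 of Cacna2d2. The members held between 132 and 13188 reads per library, the fewest in Cacna1d, so reads were not scarce for any of them. The spread between pools set the width of the intervals: a p over the threshold does not show that a gene was the same in both groups, and the interval of Cacna1b, for example, spans -1.08 to 0.79.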

How the data were processed

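RNA of pooled lumbar dorsal root ganglia was made into stranded total RNA libraries and read as single-end reads of 75 nucleotides, per the labels' protocols. The authors deposited unnormalized read counts for each gene symbol. The submitters' processing notes name STAR, SAMtools and HTSeq and the build mm10 (GRCm38); for tool versions, gene annotation and strand setting, the sources used here give nothing. Groups and replicate numbers come from the sample titles. The counter's summary lines stayed out of library sizes and tests. Non-unique alignments made up 31.1% to 40.5% of each tally, alignments assigned to no feature 14.8% to 24.8% and ambiguous ones 0.253% to 0.331%.

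Counts were tested in R 4.3.3 with edgeR 4.0.16 (filterByExpr with a minimum count of 10, TMM, robust estimateDisp and glmQLFit, glmQLFTest, two-sided, treatment group only, all 6 libraries), with Benjamini-Hochberg adjustment over 16706 genes and a threshold of 0.05. The SE is the log2 fold change over the square root of F, and 95% intervals use the fit's total degrees of freedom. Log2 CPM per library uses a prior count of 2. Lengths and positions are from GENCODE M21 on GRCm38. Libraries of a group differed beyond sampling noise (chi-square per degree of freedom of at least 13.3). Alternatives were DESeq2 1.42.0, limma 3.58.1 (voom), other scalings and filters, a replicate block and leaving out each library; sample quality weights were an alternative chosen after seeing the data. The steps were tested on simulated data.

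The members and gene lists were chosen with earlier results of these data known. By rule, all members and other subunits are named, with the called genes and the 4 smallest p of each pathway list and the 5 genes most like Cacna2d1 and Cacna1b. A result for 1 listed gene is not reported here. Of the list entries 148 matched by symbol and 2 by an older one. Read depth per library is given with the results, and counting intervals would cover counting error only.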

Additional observations from a re-analysis of the deposited data

How the results depend on the processing

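For the 10 members the count of calls by edgeR or limma was 0 with all libraries, under each of the 14 alternatives in turn, and for the other subunits and the store and pump genes it was 0 as well; DESeq2 with all libraries also gave 0, and without vincristine replicate 1 it called Cacna2d1. Leaving out each library in turn gave 0 to 1 called regulators, against 0 with all of them. The count over all genes was 60, and 0 to 346 when each library was left out. It was 569 by DESeq2, 35 by limma-voom, 474 with sample quality weights, 99 without a filter on low counts, 261 with the replicate block and 19 with scaling to neuron markers. At an unadjusted p under 0.05, 1900 genes were found with all libraries by edgeR. Beside the 0 calls without vehicle replicate 1, 2 or 3 by edgeR, DESeq2 made 331, 212 and 328. The cause was not tested.

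Same-numbered libraries correlated at 0.43, 0.25 and -0.09 in their deviations from the group means, so the numbers are not taken as pairs. The numbers are those of the sample titles; the table of vehicle replicate 3 carries the number 4 in its name, and how the numberings relate is not stated. Only 1 of the 3 numbers correlated best with itself. With the replicate block 0 members were called, and Cacna2d1 stood at 0.52.

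Direction turned under scaling to neuron markers, which moved the median gene by 0.38, for Cacna1a (0.0541), Cacna1b (0.0625), Cacna1c (0.0732), Cacna1e (0.40), Cacna2d2 (0.11), Cacng2 (0.0375), Cacng7 (0.13), Rims2 (0.0661), Rims1 (0.0141) and Slc8a3 (0.0739), and with sample quality weights for Cacna1g (-0.0401) and Cacng4 (-0.0023). When each library was left out in turn, log2 fold changes ranged from -0.519 to 0.182 for Cacna1b, -0.439 to 0.0025 for Cacna1e, -0.24 to 0.390 for Cacna1g, -0.410 to 0.0351 for Cacnb1, -0.126 to 0.247 for Cacng4 and -0.333 to 0.0589 for Cacng7. The turns came without vehicle replicate 2 for Cacna1b (0.0802), Cacna1g (-0.0464) and Cacng4, without vehicle replicate 3 for Cacna1e, and without vincristine replicate 1 for Cacna1b, Cacna1g, Cacnb1, Cacng4 and Cacng7. None of these genes was called in either direction, and the cause was not tested. Cacna2d1 stayed between 0.24 and 0.87, Cacna2d3 between -0.55 and -0.07 and Cacna1h between -0.47 and -0.0070 over the 14 alternatives. With the longest transcript as length, 7 of the 10 vehicle levels moved by more than 1 SD. Depth limits Cacna1f, Cacng1, Cacng6, Cacna2d4, Cacng3 and Cacng8, which had at most 22 reads in any library.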
